A study of Mus musculus with 34 samples.

Results

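The synaptotagmins, synapsins and SNARE proteins form the machinery with which a nerve terminal releases transmitter, and their transcripts were followed here in the dorsal hippocampus after spatial learning. The members are the protein-coding genes of the bulk count table whose symbols name a synaptotagmin, a syntaxin, a syntaxin binding protein, a vesicle-associated membrane protein (VAMP), a synapsin, or *Snap23*, *Snap25*, *Snap29*, *Snap47* or *Snap91*. This rule uses names only and found 55 genes of the 54532 in the table, namely 17 synaptotagmins, 15 syntaxins, 7 syntaxin binding proteins, 8 VAMP genes, 5 SNAP genes and 3 synapsins. A processed pseudogene, *Stxbp3-ps*, also matched by name and was left out.

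Bulk RNA-seq was performed on dissected dorsal hippocampus from 8 adult male C57BL/6J mice, 1 library per mouse. The 4 homecage mice stayed in their cages, and the 4 SOR mice were euthanized an hour after training in spatial object recognition (SOR), a task in which a mouse learns where objects stand in an arena. The labels name no transgene and no drug for either group. The question is whether the transcripts of the release machinery differ between trained and untrained mice at this early time.

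Transmitter release is a membrane fusion driven by SNARE proteins. A VAMP on the vesicle zips together with a syntaxin and SNAP-25 on the plasma membrane, and the resulting helical bundle pulls both membranes into contact. Synaptotagmins sense the calcium that enters with an action potential and trigger the last step, Munc18 proteins (the *Stxbp* genes) hold and template the syntaxin, and synapsins tether vesicles in a reserve cluster. Other syntaxins, VAMPs and SNAPs serve fusion at the Golgi, endosomes, lysosomes and autophagosomes in every cell.

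Total counts per library lay between 51406011 and 81525977. Training was registered in these libraries, since *Arc*, an immediate early gene of active neurons, stood at 91.9 ± 4.98 CPM (counts normalised to the scaled library size, SD, n = 4) in homecage and at 246 ± 21.0 CPM (n = 4) in SOR, with an adjusted p of 8.27e-06 in edgeR's quasi-likelihood test. *Fos* rose from 3.55 ± 1.17 to 13.1 ± 1.87 CPM (adjusted p = 0.00477, edgeR's quasi-likelihood test). The summed level of 8 neuronal markers ranged from 3472 to 3611 CPM in homecage and from 3464 to 3578 CPM in SOR, and all 8 were above 1 CPM. The summed level of 5 choroid plexus markers, by contrast, was uneven between mice, at 1088, 25.0, 65.1 and 877 CPM in homecage and 3980, 877, 790 and 41.2 CPM in SOR. SOR mouse 1 stood apart with the highest sum, and SOR mouse 3 had the lowest sum of 8 oligodendrocyte markers, 4669 CPM against 5221 to 6236 CPM in the other mice. In bulk tissue, fewer cells of a type and less RNA per cell cannot be told apart.

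Upstream sequences are shown for 4 members because cyclic AMP response elements (CRE) and EGR sites are the textbook elements of activity-driven genes, and a reader may want to see which release genes carry their letters close to the start. RefSeq promoter windows (GRCm38.p6, 250 bases before to 50 after a transcription start) were found for 42 of the 55 members, in 54 windows. *Snap25*, *Vamp2*, *Syt4*, *Syt7* and *Syn3* are among the members without a window, so that their starts were not searched. On either strand, the CRE letters TGACGTCA stood in 2 member windows, 3.7% against 1.79% of all 32851 windows, and these were *Syn1* and *Stxbp3*. The EGR letters GCGTGGGCG or GCGGGGGCG stood in 5, of *Stxbp5*, *Stxbp5l*, *Syn2*, *Syt16* and *Vamp4* (9.26% against 3.47%), and the AP-1 letters TGAGTCA or TGACTCA in 3, of *Syt2*, *Syt6* and *Syt8* (5.56% against 5.2%). The stretches below run 5′ to 3′ toward the start and are cut where an annotated exon begins, with the motif in capitals. They are chrX:20921005-20921168, minus strand, for *Syn1*, chr3:108840527-108840752, minus strand, for *Stxbp3*, chr16:37384963-37385208, minus strand, for *Stxbp5l*, and chr10:24149039-24149288, plus strand, for *Stx7*, a member without a match that is described further on. A match of letters is a description and not a bound site.
Syn1 (CRE): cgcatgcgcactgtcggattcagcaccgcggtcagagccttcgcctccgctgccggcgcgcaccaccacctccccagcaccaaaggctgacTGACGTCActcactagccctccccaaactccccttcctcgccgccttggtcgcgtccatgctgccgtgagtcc
Stxbp3 (CRE): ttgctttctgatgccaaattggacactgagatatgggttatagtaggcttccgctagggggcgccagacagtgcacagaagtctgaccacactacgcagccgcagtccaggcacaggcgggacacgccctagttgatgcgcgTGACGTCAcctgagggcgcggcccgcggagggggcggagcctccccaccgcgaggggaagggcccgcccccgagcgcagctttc
Stxbp5l (EGR): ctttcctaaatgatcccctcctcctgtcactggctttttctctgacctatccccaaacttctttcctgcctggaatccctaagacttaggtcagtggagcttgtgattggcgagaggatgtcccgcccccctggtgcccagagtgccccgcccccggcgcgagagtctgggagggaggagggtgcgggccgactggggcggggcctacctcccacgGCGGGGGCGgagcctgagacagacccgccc
Stx7 (no match): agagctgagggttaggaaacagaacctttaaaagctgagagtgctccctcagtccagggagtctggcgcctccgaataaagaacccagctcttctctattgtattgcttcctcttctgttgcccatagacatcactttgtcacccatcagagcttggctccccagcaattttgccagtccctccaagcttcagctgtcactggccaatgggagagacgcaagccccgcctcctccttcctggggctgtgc

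Levels were compared between genes per length, as CPM per kilobase of the union of a gene's exons, averaged over the 8 mice. *Snap25*, the plasma membrane SNARE of neurons, was the most abundant member at 215 ± 8.5 CPM per kilobase (SD, n = 8). It made up 65.6% of the summed level of the SNAP genes, among which *Snap91* is counted by name. *Syt1*, the calcium sensor of fast release, stood at 117 ± 5.61 and *Syt11*, a synaptotagmin without calcium binding, at 114 ± 5.10 CPM per kilobase, and their ranges over mice overlapped. Of the summed synaptotagmin level they held 29.1% and 28.3%. The near equality and these shares hold for the union of exons, since per kilobase of the longest annotated transcript *Syt1* stood at 203 and *Syt11* at 119 CPM. *Snap47*, an atypical SNAP without the membrane-anchoring cysteines, followed at 78.9 ± 3.35 and *Syn2* at 43.8 ± 1.89 CPM per kilobase, each apart from its neighbours in the order. From there on the levels formed a near-continuous series, and of the 54 pairs of neighbours in the order of all members, 42 overlapped in their range over the 8 mice.

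Within families the classical release isoform was not always the most abundant. *Vamp2*, the synaptic vesicle SNARE, held 44.5% of the VAMP level at 29 ± 2.64 CPM per kilobase, well above its close relative *Vamp1* at 4.93 ± 0.129. Among the syntaxin binding proteins, *Stxbp5l*, a tomosyn that blocks SNARE assembly, stood at 22.1 ± 0.520 CPM per kilobase and *Stxbp6*, known as amisyn, at 20.8 ± 2.18, with overlapping ranges (42.9 and 24.2 CPM per kilobase of the longest transcript). Among the syntaxins, *Stx12* of recycling endosomes stood at 33.5 ± 0.980 CPM per kilobase, and *Stx1a*, a plasma membrane syntaxin of nerve terminals, was lower at 21.3 ± 2.14. *Syn2* held 69.5% of the synapsin level, *Syn1* 28.7% and *Syn3* 1.87%. *Syt4*, a synaptotagmin known to respond to activity in neurons, stood at 36.1 ± 1.94, *Syt7*, the slow high-affinity calcium sensor, at 23.6 ± 1.65, and *Syt2*, the fast sensor typical of hindbrain synapses, at 2.84 ± 0.658 CPM per kilobase.

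**Figure D1:**
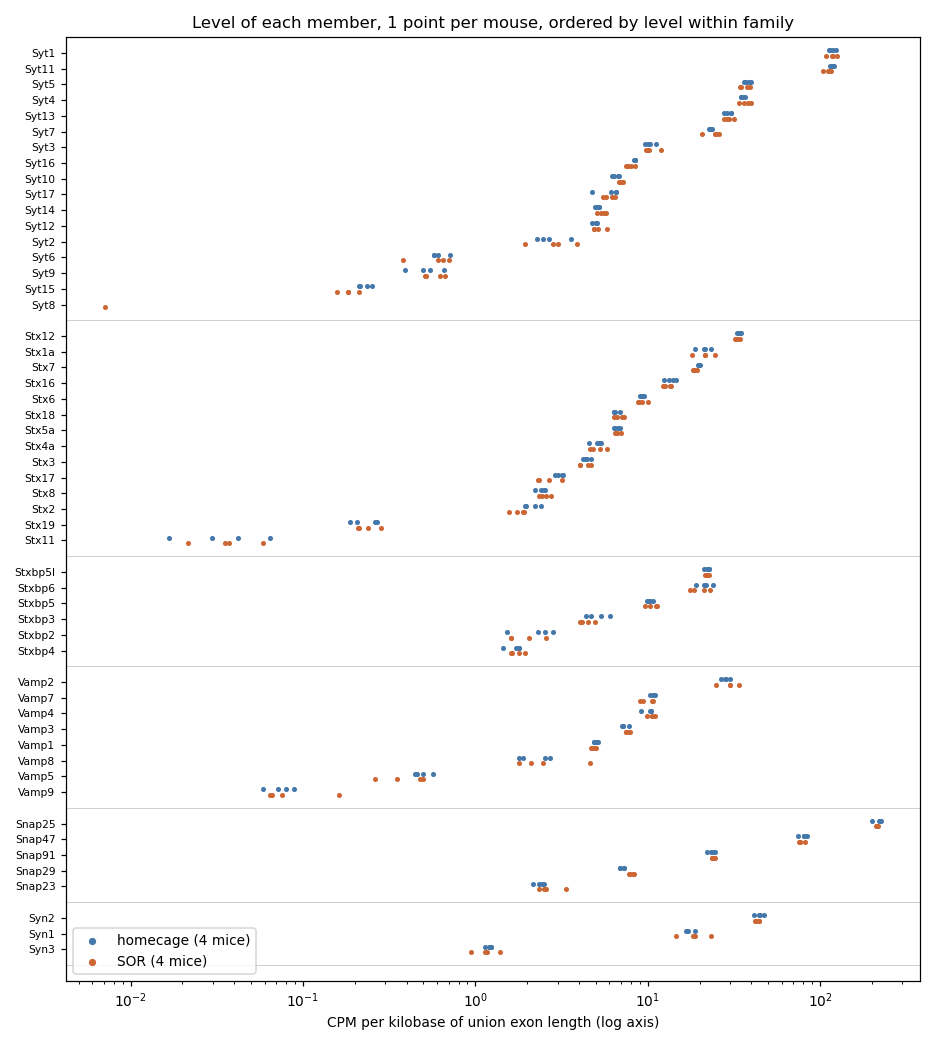
CPM per kilobase of union exon length (log axis) for 53 members in their 6 families, 1 point per mouse and homecage and SOR drawn side by side, with values of 0 not drawn. The levels span from *Snap25* at a mean of 215 down to *Syt8*, which had a point in 1 mouse only, and the points of both groups lie together for most members.

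In all, 24 members stood at 10 or more CPM per kilobase, while 3 members were too low to test. *Syt8*, a synaptotagmin of epithelial and reproductive tissue, had about 1 count in SOR mouse 1 and 0 in the other 7 mice. *Stx11*, a syntaxin of immune cells, had between 5.06 and 16.2 counts per library, and *Vamp9* between 4.08 and 11 counts. The other 52 members passed the filter on low counts and entered the comparison.

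No member was called between SOR and homecage. At an adjusted p under 0.05 in edgeR's quasi-likelihood test, 0 of the 52 members passed, where 68 of all 22018 genes tested did (0.309%), and 38 of these also exceeded a fold change of 1.4 (0.173%). The lowest adjusted p of a member was 0.217, for *Snap29*. At an unadjusted p under 0.05, 5 members passed in edgeR's test (9.62%), against 10.1% of all genes. Of these, 1 was higher in SOR (background 4.54%) and 4 were lower (background 5.51%). The groups did not overlap for 3 members (5.77%), meaning that every SOR mouse stood beyond every homecage mouse, 1 upward and 2 downward, against 6.94% of all genes (2.98% upward and 3.96% downward). Both overall shares, 9.62% and 5.77%, were slightly below their background. DESeq2 called 1 member, *Snap29*, where it called 2.68% of the 16464 genes to which it gave an adjusted p.

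The differences were small and their direction was mixed. Between SOR and homecage, 28 members had a log2 fold change above 0 and 24 below, so that 53.8% were on the higher side against 43.8% of all genes, and the median was 0.01 on the log2 scale against -0.02 for all genes. The count was 19 of 52 without SOR mouse 3, with a median of -0.03. The median size of the log2 fold change, whatever its sign, was 0.063 for members and 0.099 for all genes. Among abundant genes, those averaging 10 CPM or more, the median size was 0.057 for the 44 members and 0.057 for all 9879 genes. The 95% intervals of the fold change lay within 1.4-fold in both directions for 46 members (88.5%, against 58.9% of all genes). At that level of abundance this held for 97.7% of the members and for 95% of all genes.

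**Figure D2:**
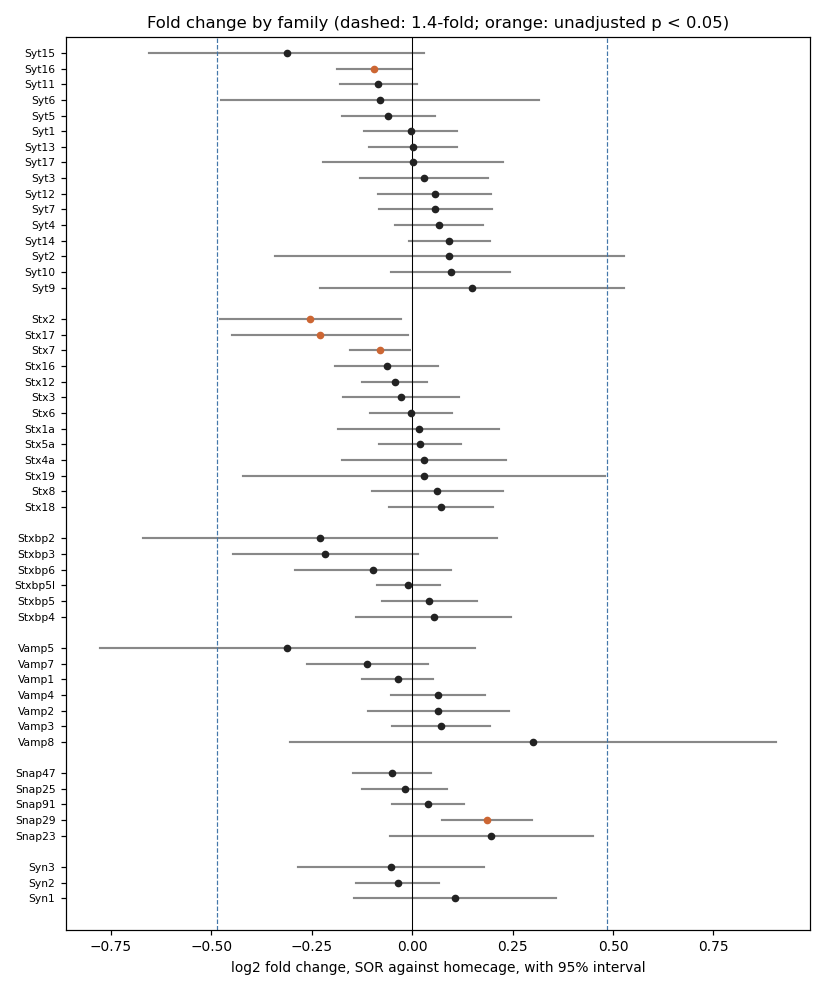
log2 fold change of SOR against homecage for 50 tested members by family, each point with its 95% interval, dashed lines at a fold change of 1.4 and orange points for an unadjusted p under 0.05. Intervals of 44 of them stay between the dashed lines, and the widest belong to low genes such as *Vamp5*, *Vamp8* and *Stxbp2*.

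By family, the medians stayed close to 0 on the log2 scale. The 16 tested synaptotagmins had 10 members above 0 and a median of 0.016, the 14 syntaxins had 7 and a median of 0.0067, and the 7 syntaxin binding proteins had 3 and a median of -0.010. The 7 tested VAMP genes had 4 above 0 and a median of 0.065, the 5 SNAP genes had 3 and a median of 0.040, and the 3 synapsins had 1 and a median of -0.036. The SNAP median is the value of *Snap91*, the clathrin adaptor AP180, which is grouped here by name only. Without SOR mouse 3 the VAMP median was -0.0024 and the syntaxin median -0.045, and without SOR mouse 1 the VAMP median was -0.022. The synapsin median was 0.033 without SOR mouse 1, and the synaptotagmin median was -0.023 without SOR mouse 4. In these 4 families the sign of the median thus turned when 1 mouse was left out. The median of the syntaxin binding proteins was -0.063 without SOR mouse 3 and lay above 0, at 0.0095 to 0.0109, with TMM and RLE scaling and in DESeq2.

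The core fusion SNAREs differed by less than the spread between mice. *Snap25* (chr2:136713453-136782428) stood at 1351, 1540, 1483 and 1516 CPM in the 4 homecage mice and at 1428, 1456, 1450 and 1479 CPM in the 4 SOR mice, so that all SOR values fell inside the homecage range. The log2 fold change was -0.02 with a 95% interval from -0.13 to 0.09. *Vamp2* stood at 101, 107, 109 and 115 CPM in homecage and at 95, 114, 128 and 114 CPM in SOR, with the highest and the lowest mouse both in the SOR group. Its log2 fold change was 0.06 with an interval from -0.11 to 0.24. *Stx1a* averaged 56.6 ± 4.99 CPM in homecage and 57.2 ± 7.12 CPM in SOR (SD, n = 4 each). Its product pairs with SNAP-25, and its log2 fold change was 0.02.

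The calcium sensors also overlapped between groups. *Syt1* stood at 938, 997, 958 and 1029 CPM in homecage and at 901, 988, 1043 and 978 CPM in SOR, and all homecage values lay inside the SOR range. The log2 fold change was -0.0043 with an interval from -0.12 to 0.11, and its sign changed with the scaling of the libraries. *Syt2* averaged 20.9 ± 4.45 and 22.4 ± 6.15 CPM with a log2 fold change of 0.09 (95% interval -0.34 to 0.53). *Syt7* stood at 174, 169, 178 and 172 CPM in homecage and at 155, 185, 187 and 195 CPM in SOR. For *Syt7* 3 SOR mice were above every homecage mouse and SOR mouse 1 was below all of them. Its log2 fold change was 0.06 (adjusted p = 0.82, edgeR's quasi-likelihood test) and without SOR mouse 1 it was 0.12 (unadjusted p = 0.00756 and adjusted p = 0.315, edgeR's quasi-likelihood test).

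The synaptotagmins that do not bind calcium included the lowest p of the family. *Syt16* stood at 77.6, 77.7, 76.5 and 76.8 CPM in homecage and at 70.0, 68.8, 76.8 and 73.3 CPM in SOR, where mouse 3 fell among the homecage values. Its log2 fold change was -0.09 (SE 0.042, unadjusted p = 0.047 and adjusted p = 0.49, edgeR's quasi-likelihood test). *Syt11*, known to restrain vesicle retrieval, averaged 612 ± 13.2 and 578 ± 25.7 CPM, a log2 fold change of -0.08 (adjusted p = 0.55, edgeR's quasi-likelihood test). *Syt14* averaged 61.0 ± 1.70 and 65.0 ± 3.27 CPM, a log2 fold change of 0.09 (adjusted p = 0.537, edgeR's quasi-likelihood test). *Syt4* stood at 135, 142, 136 and 136 CPM in homecage and at 154, 140, 148 and 132 CPM in SOR, with 2 SOR mice above the homecage range, 1 inside it and SOR mouse 4 below it. Its log2 fold change of 0.07 had an interval from -0.04 to 0.18. The remaining tested synaptotagmins, *Syt3*, *Syt5*, *Syt6*, *Syt9*, *Syt10*, *Syt12*, *Syt13*, *Syt15* and *Syt17*, had log2 fold changes between -0.31 for *Syt15*, at about 1 CPM, and 0.15 for *Syt9*, at about 2 CPM.

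The Munc18 proteins and tomosyns gave no call either. *Stxbp3*, a Munc18 of regulated exocytosis outside synapses, averaged 27.3 ± 4.02 CPM in homecage and 23.5 ± 2.16 CPM in SOR, a log2 fold change of -0.22 (unadjusted p = 0.0626 and adjusted p = 0.522, edgeR's quasi-likelihood test). *Stxbp2*, a Munc18 of immune and epithelial secretion, averaged 9.53 ± 2.29 and 8.13 ± 1.90 CPM, a log2 fold change of -0.23 with a wide interval from -0.67 to 0.21. *Stxbp5l* averaged 189 ± 5.57 and 188 ± 3.68 CPM, a log2 fold change of -0.010. *Stxbp4*, *Stxbp5* and *Stxbp6* lay between -0.10 and 0.05 on the log2 scale.

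The synapsins overlapped between groups. *Syn1* (chrX:20860511-20921004) stood at 55.5, 62.3, 55.0 and 56.8 CPM in homecage and at 48.3, 61.8, 76.9 and 60.4 CPM in SOR. *Syn2* averaged 312 ± 17.9 and 304 ± 7.40 CPM, and *Syn3* averaged 14.8 ± 0.527 and 14.2 ± 2.22 CPM. On the log2 scale the fold changes were 0.11 for *Syn1*, -0.04 for *Syn2* and -0.05 for *Syn3*, and the lowest adjusted p in edgeR's quasi-likelihood test was 0.811. Exons of *Syn3* share 1733 bases (14.1% of its exon length) with *Timp3* on the other strand, so that its level may hold reads of *Timp3* if reads were counted without strand.

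The spread within the SOR group followed the same mice in several core genes, as the plot of core release genes by mouse shows. *Syn1* ranged in SOR from 84.1% of the homecage mean in mouse 1 to 134% in mouse 3, *Vamp2* from 88.0% to 119%, *Syt1* from 91.9% to 106% and *Syt2* from 71.3% to 143%. In each of these 4 genes, picked after their values were seen, mouse 1 was the lowest and mouse 3 the highest of the SOR group. Over the 52 tested members, SOR mouse 3 was the highest of its group for 21 members, and SOR mouse 1 was the lowest for 18 and the highest for 14. In the homecage group mouse 1 was the lowest for 21 members and mouse 2 the highest for 16. *Snap25* and *Syn2*, by contrast, stayed between 95.2% and 100.4% of the homecage mean in all SOR mice.

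Values without either mouse were as follows. Without SOR mouse 1, the log2 fold change was 0.21 for *Syn1* (unadjusted p = 0.0334, adjusted p = 0.479) and 0.14 for *Vamp2* (unadjusted p = 0.0329, adjusted p = 0.478) in edgeR's quasi-likelihood test. Without SOR mouse 3 the same genes stood at -0.02 and -0.0024. The sign of both differences thus turned without SOR mouse 3 and was kept without SOR mouse 1. The coefficient of variation was larger in SOR than in homecage for 34 of the 52 members (65.4%), close to the 63.3% of all genes. Without SOR mouse 1 it was larger for 25 members (48.1%, against 55.0% of all genes), and without SOR mouse 3 for 36 members (69.2%, against 59.9%). The neuronal marker sum was 3464 CPM in SOR mouse 1 and 3578 CPM in SOR mouse 3, and the choroid plexus and oligodendrocyte sums of these mice are given above. Their part in the spread was not tested.

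**Figure D3:**
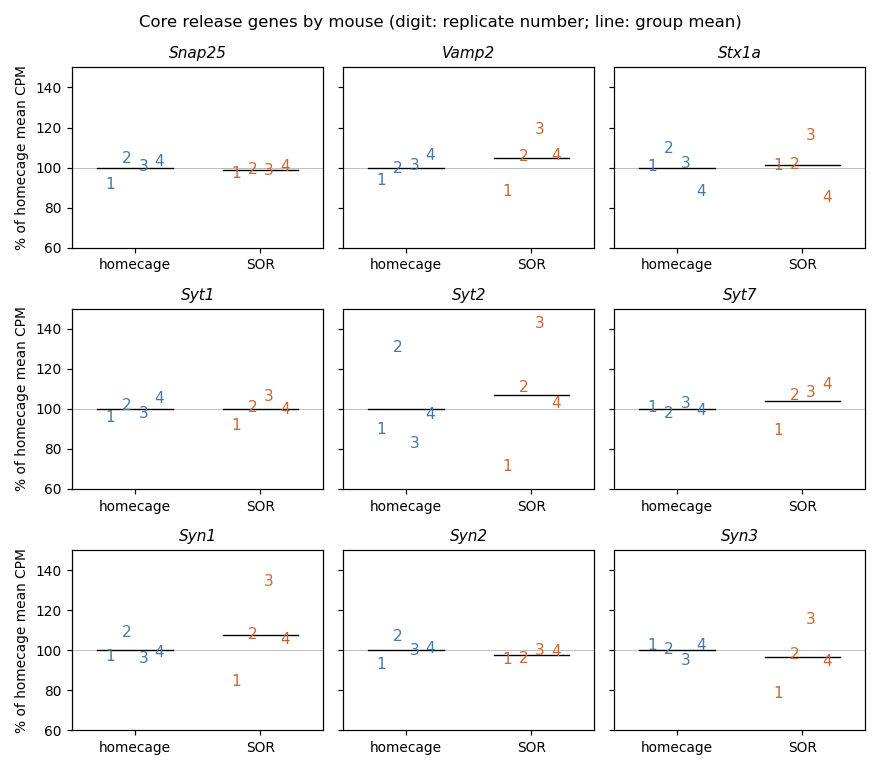
CPM of 9 core release genes in percent of the homecage mean, with each mouse drawn as its replicate number and a line at the group mean. SOR mouse 1 lies lowest and SOR mouse 3 highest for *Vamp2*, *Syt1*, *Syt2*, *Syn1* and *Syn3*, while *Snap25* and *Syn2* hold the SOR mice close together.

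*Snap29* had the lowest p of all members. It encodes a SNAP without a membrane anchor that serves several intracellular fusion steps and joins *Stx17* and *Vamp8* products in the fusion of autophagosomes with lysosomes. *Snap29* (chr16:17405986-17430827) stood at 25.2, 23.9, 23.7 and 25.0 CPM in homecage and at 28.6, 27.0, 27.4 and 28.4 CPM in SOR. All 4 SOR mice were above all 4 homecage mice, and the mice of each group lay close together. The means were 24.5 ± 0.745 and 27.8 ± 0.788 CPM (SD, n = 4 each), a log2 fold change of 0.19 (SE 0.050, interval from 0.08 to 0.30). The unadjusted p was 0.0037 and the adjusted p 0.217 in edgeR's quasi-likelihood test, and the exact two-sided permutation test gave 0.0286, the smallest p that 4 against 4 mice allow. The log2 fold change stayed between 0.17 and 0.20 with each mouse left out, while the adjusted p lay between 0.271 and 0.496. Under the other processing settings the adjusted p ran from 0.0158 in DESeq2 to 0.378. Its exons share 60 bases (1.74%) with *Pi4ka* on the other strand.

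Its 2 autophagic partners did not pass either. *Stx17*, the syntaxin of autophagosomes, stood at 18.8, 17.3, 19.1 and 18.0 CPM in homecage and at 13.9, 15.9, 18.8 and 13.8 CPM in SOR, where 3 mice were below the homecage range and mouse 3 was inside it. The log2 fold change was -0.23 (SE 0.099, unadjusted p = 0.0416 and adjusted p = 0.477, edgeR's quasi-likelihood test). Without SOR mouse 3 it was -0.33 with an unadjusted p of 0.00182 and an adjusted p of 0.187 in edgeR's quasi-likelihood test. *Vamp8*, the lysosomal partner, had a log2 fold change of 0.30 with an interval from -0.30 to 0.91.

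Syntaxins of other membranes included both members whose SOR values lay wholly below homecage. *Stx7* (chr10:24149302-24190222), which serves fusion of late endosomes with lysosomes, stood at 88.9, 89.1, 89.6 and 87.8 CPM in homecage and at 86.9, 83.2, 82.5 and 83.4 CPM in SOR. The groups were apart by less than 1 CPM between SOR mouse 1 and homecage mouse 4, and the log2 fold change was -0.08 (SE 0.034, unadjusted p = 0.0367 and adjusted p = 0.461, edgeR's quasi-likelihood test). *Stx2* (chr5:128984557-129008574), a plasma membrane syntaxin found mostly outside synapses, stood at 10.2, 8.98, 8.92 and 11.1 CPM in homecage and at 8.85, 7.24, 8.66 and 8.05 CPM in SOR. Its groups nearly touched, at 8.92 CPM in homecage and 8.85 CPM in SOR, and the log2 fold change was -0.25 (SE 0.102, unadjusted p = 0.0305 and adjusted p = 0.44, edgeR's quasi-likelihood test). For both genes the exact permutation test gave 0.0286. *Stx12* averaged 108 ± 2.53 and 105 ± 3.08 CPM, a log2 fold change of -0.04. The Golgi, endosomal, reticulum and plasma membrane syntaxins *Stx3*, *Stx4a*, *Stx5a*, *Stx6*, *Stx8*, *Stx16*, *Stx18* and *Stx19* ranged from -0.06 to 0.07 on the log2 scale, and no exact permutation p of theirs was under 0.2.

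**Figure D4:**
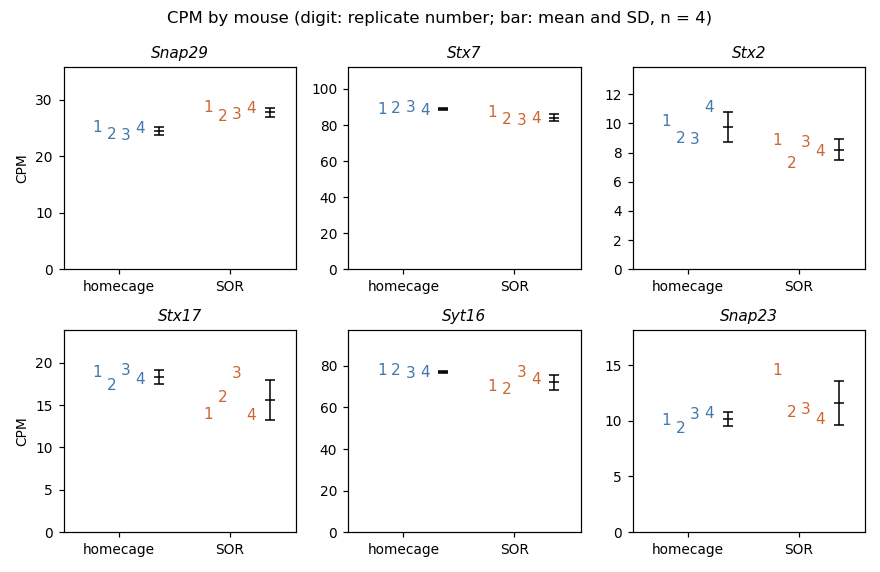
CPM by mouse for the 5 members with an unadjusted p under 0.05 and for *Snap23*, with each mouse drawn as its replicate number and the mean and SD (n = 4) at the side, all axes from 0. *Snap29* is higher in every SOR mouse, *Stx7* and *Stx2* are lower in every SOR mouse by a narrow margin, and *Stx17*, *Syt16* and *Snap23* overlap.

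The largest upward estimates, *Vamp8* and *Snap23*, rested on SOR mouse 1. *Vamp8* was chosen after its values were seen. It stood at 5.89, 4.13, 4.39 and 6.29 CPM in homecage and at 10.7, 5.75, 4.88 and 4.12 CPM in SOR, so that only mouse 1 was above the homecage range. Without that mouse its log2 fold change was -0.07. *Snap23*, the SNAP of cells outside the nervous system and of dendritic spines, stood at 9.99, 9.34, 10.5 and 10.7 CPM in homecage and at 14.5, 10.8, 11 and 10.1 CPM in SOR. Its log2 fold change was 0.20 with all mice (adjusted p = 0.612) and 0.07 without SOR mouse 1 (adjusted p = 0.841) in edgeR's quasi-likelihood test. SOR mouse 1 also had the highest sum of the choroid plexus markers, 3980 CPM, of which 3710 CPM was *Ttr*, and all 5 of these markers were highest in it. The 3 mice with the lowest choroid plexus sums, 25.0 to 65.1 CPM, were also the 3 with the lowest *Vamp8* levels, 4.12 to 4.39 CPM. *Snap23* did not follow that order, since homecage mouse 1, with the next highest sum after SOR mouse 1, 1088 CPM, stood at 9.99 CPM, below homecage mouse 3 with a sum of 65.1 CPM and 10.5 CPM of *Snap23*. The part of choroid plexus tissue in these values was not tested.

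**Figure D5:**
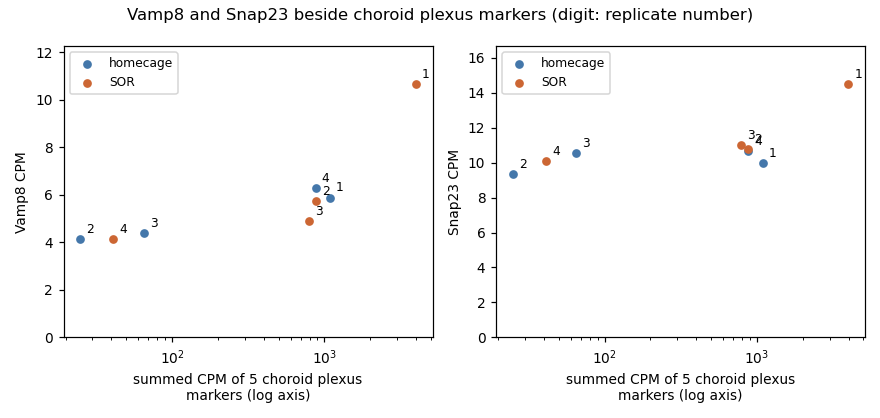
CPM of *Vamp8* and *Snap23* in each mouse against the summed CPM of 5 choroid plexus markers (log axis), with the replicate number beside each point. SOR mouse 1, at 3980 CPM of markers, holds the highest value of both genes, 10.7 and 14.5 CPM.

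The remaining VAMP and SNAP genes showed small differences that did not pass the test. *Vamp7*, a lysosomal VAMP, averaged 27.3 ± 0.756 and 25.2 ± 2.26 CPM, a log2 fold change of -0.11 (adjusted p = 0.629, edgeR's quasi-likelihood test), and *Vamp5*, a VAMP of muscle and endothelium at about 1 CPM, had -0.31 with an interval from -0.78 to 0.16. *Vamp1*, *Vamp3* and *Vamp4* lay between -0.04 and 0.07 on the log2 scale. *Snap47* averaged 213 ± 9.89 and 206 ± 7.18 CPM, a log2 fold change of -0.05, and *Snap91*, which is the clathrin adaptor AP180 and shares only its name with the SNAREs, averaged 214 ± 9.73 and 220 ± 4.30 CPM, a log2 fold change of 0.04. Exons of *Snap47* share 307 bases (11.6%) with *Jmjd4* on the other strand.

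The balance between related genes was compared in each mouse as a log2 ratio of CPM per kilobase of union exon length. The 7 pairs were chosen after values had been seen. The ratio of *Syt4* to *Syt11* was -1.74 ± 0.043 in homecage and -1.59 ± 0.160 in SOR, the lowest exact permutation p of the pairs (0.143, and 0.6 after Benjamini-Hochberg adjustment over the 7 pairs). *Syn1* to *Syn2* was -1.35 ± 0.053 and -1.23 ± 0.248 (exact permutation p = 0.429). *Vamp1* to *Vamp2*, *Snap23* to *Snap25*, *Syt2* to *Syt1*, *Syt7* to *Syt1* and *Syn3* to *Syn2* differed by -0.09 to 0.20 on the log2 scale, with no adjusted p under 0.6. No exchange of one isoform for another was detectable with 4 mice a group.

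Around the members, a list of 80 further genes of the release cycle was examined, of which all but *Sytl3* could be tested. It holds Munc13, RIM and active zone scaffolds, complexins and priming factors, the disassembly proteins, vesicle membrane proteins, recycling proteins, other SNAREs with their partners, and synaptotagmin-like proteins. Of the 79 tested, 28 had a log2 fold change above 0 (35.4%, against 43.8% of all genes) and 51 below. The median was -0.02, as for all genes. None passed an adjusted p of 0.05 in edgeR's quasi-likelihood test, and 8 passed an unadjusted p of 0.05, all of them lower in SOR, namely *Sytl2*, *Snapin*, *Bet1l*, *Use1*, *Ppfia4*, *Sypl*, *Ppfia1* and *Bin1*. These 8 are 10.1% of the list. Of all genes, 5.51% passed and were lower in SOR, and 10.1% passed in either direction. The groups did not overlap for 6 of the 79 (7.59%), all 6 of them lower in SOR. Of all genes, 3.96% lay apart downward and 6.94% in either direction.

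*Sytl2*, which links Rab27 to membranes in secretory cells, had the lowest p of that list. It stood at 47.6, 42.0, 37.2 and 38.5 CPM in homecage and at 29.7, 30.3, 36.6 and 31.5 CPM in SOR, and the nearest mice of the groups differed by less than 1 CPM. The log2 fold change was -0.37 (SE 0.089, adjusted p = 0.166, edgeR's quasi-likelihood test), and DESeq2 gave an adjusted p of 0.0166. *Snapin*, a partner of SNAP-25, averaged 30.2 ± 0.908 and 27.3 ± 1.26 CPM, a log2 fold change of -0.15 (adjusted p = 0.381). *Bet1l*, a Golgi SNARE, averaged 20.2 ± 1.44 and 17.7 ± 0.791 CPM, a log2 fold change of -0.19 (adjusted p = 0.4, both in edgeR's quasi-likelihood test).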

How the data were processed

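RNA of dorsal hippocampus from 4 homecage and 4 SOR mice was sequenced as paired-end reads. The methods name a stranded total RNA kit with removal of ribosomal RNA, while the labels name polyA RNA. The authors aligned reads to mm10 with STAR in bcbio-nextgen and counted genes with featureCounts, and deposited estimated counts per gene, not normalized, that tximport summarized. Any scaling from abundance and the strand setting are not given in the sources used here. Of the deposited values, 52.6% are not whole numbers.

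For the values given here, gene types and exons came from GENCODE M21, which holds 54495 of the 54532 genes. Counts were rounded and filtered with filterByExpr, which kept 22018 genes, and libraries were scaled with upper-quartile factors. CPM is on those scaled library sizes, and CPM per kilobase divides by the union of exons. R 4.3.3 and edgeR 4.0.16 (glmQLFit, glmQLFTest) gave quasi-likelihood p-values for SOR against homecage, which were adjusted by Benjamini-Hochberg across the whole tested table. Intervals of 95% use the standard error derived from that test. For single values, all 70 assignments of mice to groups gave an exact permutation p, two-sided. The chi-square per degree of freedom between replicates was 11.9 to 54.1, so that mice differed beyond counting error. The biological coefficient of variation was 14.1%. The fit was tested on simulated data before use.

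The members, gene lists and pairs were chosen with earlier results of these data known. Named with values were members past an adjusted or unadjusted p of 0.05, the 2 most abundant per length and the 2 with the lowest p in each family, members whose groups did not overlap, and textbook release genes, and from the release cycle list the 3 with the lowest p. As alternatives, libraries were scaled by TMM, by RLE or by total, genes were left unfiltered or kept above 5 counts in 2 samples, and the test was replaced by the likelihood ratio test, DESeq2 1.42.0 or limma-voom (limma 3.58.1). Further fits had 1 or 2 RUVs factors (the study names RUVs without the number, and it was rebuilt here), the replicate number as a block, or 1 mouse left out. Leaving mice out of the count of non-overlapping members and of the paralog ratios was chosen after seeing the data. Of the members, 2 enter the counts and medians but are not reported here singly. Spatial, single-nucleus and ATAC samples were not analysed here. Tables and figures were made with Python 3.11.15 and pandas 2.3.3.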

Additional observations from a re-analysis of the deposited data

Results flagged for a closer look

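In 3 of the 104 groups of 4 mice examined (52 tested members in both groups), 1 mouse lay far from the other 3 by Dixon's criterion (chance flags about 1 group in 20). *Stx18*, a syntaxin of the endoplasmic reticulum, stood at 31.83 CPM in homecage mouse 1 against 29.11 to 29.51 CPM in the other homecage mice. *Vamp4*, a SNARE of the Golgi and endosomes, stood at 41.97 CPM in homecage mouse 3 against 46.8 to 47.55 CPM. *Snap47* stood at 216.3 CPM in SOR mouse 4 against 200.5 to 203.1 CPM. Exons of *Stx18* share 574 bases (12.5%) with *Nsg1* on the other strand.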

How the results depend on the processing

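Across the 13 other settings and the 8 fits with a mouse left out, no member passed an adjusted p of 0.05 except *Snap29* in DESeq2 (1 member, log2 fold change 0.21, adjusted p 0.0158). In the release cycle list, 1 gene, *Sytl2*, passed in the likelihood ratio test, in DESeq2 and in the likelihood ratio test with 1 and with 2 RUVs factors (1 each). All genes called numbered 68 in the quasi-likelihood test and from 40 to 500 under the other settings, with 214 in the likelihood ratio test and 442 in DESeq2. Small log2 fold changes crossed 0. *Snap25* became 0.0014 with TMM and 0.0026 with RLE and DESeq2, *Stxbp5l* 0.0095, 0.0107 and 0.0109, and *Syt1* 0.0151 with TMM, 0.0164 with RLE and DESeq2, 0.0019 with library sizes, 0.0006 with genes kept above 5 counts in 2 samples, and 0.0055 with 2 RUVs factors in both tests. The median over all genes moved as well, from -0.0193 in the quasi-likelihood test to 0.0006 with TMM, 0.0019 with RLE and 0.0017 in DESeq2. It was -0.0122 with library sizes, -0.0174 with genes kept above 5 counts in 2 samples, and -0.0229 with 2 RUVs factors in both tests. The part of this shift in the changes of sign was not tested.

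With each mouse left out in turn, log2 fold changes ranged from -0.0557 to 0.0043 for *Snap25*, -0.0570 to 0.0853 for *Stx1a*, -0.0314 to 0.0028 for *Stxbp5l*, -0.0161 to 0.2087 for *Syn1*, -0.1514 to 0.0330 for *Syn3*, -0.0368 to 0.0319 for *Syt1*, -0.0816 to 0.2485 for *Syt2* and -0.0024 to 0.1388 for *Vamp2*. The family medians ranged from -0.0221 to 0.0626 (VAMP), -0.0449 to 0.0147 (syntaxins), -0.0482 to 0.0330 (synapsins), -0.0228 to 0.0390 (synaptotagmins), -0.0630 to -0.0031 (syntaxin binding proteins) and 0.0150 to 0.0624 (SNAP), the members without overlap from 3 to 6 (smaller groups overlap less often by construction), and the ratio differences from -0.0428 to 0.2206 (*Syt2* to *Syt1*) and -0.1090 to 0.0516 (*Syn3* to *Syn2*).

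Deviations of same-numbered mice correlated at -0.10 to 0.17, inside the range of other-numbered mice, -0.34 to 0.25. Weak correlations cannot decide whether mice of the same number were handled together. A fit with the number as a block called 0 members and 40 of all genes. With 4 mice a group, the intervals of *Syt2*, *Syt9*, *Syt15*, *Stxbp2*, *Vamp5* and *Vamp8* reach beyond 1.4-fold, all but *Syt2* below 10 CPM in homecage, and genes on the other strand share exon bases with 14 members.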
